A study of Rattus norvegicus with 20 samples.

Results

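The genes described here are 41 response genes of the NF-kB and interferon pathways, chosen by name: receptors and adaptors, NF-kB subunits and their regulators, other transcription factors, cytokines and chemokines, adhesion molecules and other inducible effectors, and interferon-induced and antigen presentation genes. The array's annotation named 40 of them, all but Osmr, on 51 probe sets, out of 14218 genes on 20832 probe sets with 1 gene each. Each level below is log2(intensity + 1) of 1 probe set on 1 array. Of the 51 probe sets, 41 (38 genes) lay above log2 4 on at least 4 of 15 arrays and were tested, among 15999 tested in all. The 10 not tested were 2 probe sets each of Il1r1, Bcl3 and Tnf and 1 each of Cebpd, Il6, Mx2 and Tap1.

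The cells were globular bushy cells, projection neurons of the cochlear nucleus whose axons end as the calyx of Held, a giant synapse of the auditory brainstem. Sprague Dawley rats received cholera toxin B, a fluorescent tracer that axons carry back to the cell body, in the medial nucleus of the trapezoid body on the opposite side, where these axons end. The animals were killed 24 hours later, and 200 labelled cells of each were cut from frozen sections with a laser. The arrays came from 6 animals at postnatal day 3 (P3), when the synapse has just formed, 9 at P8, a juvenile stage, and 5 at P21, when it is mature. All groups, the later ages included, had the injection, and no uninjected group was among the samples. Each sample pooled cells of 1 animal and could hold RNA of neighbouring cells, and in such pools fewer cells of a type and less RNA per cell cannot be told apart.

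NF-kB is a family of transcription factor dimers held in the cytoplasm by inhibitor proteins until signals from tumour necrosis factor, interleukin-1 or Toll-like receptors release them. Released dimers switch on chemokines, adhesion molecules and their own inhibitors, which end the response. Interferons act through JAK kinases and STAT and IRF factors on another set of genes, among them antiviral proteins such as Mx1 and the machinery that presents peptides on class I molecules. In the brain these programmes are best known from microglia, astrocytes and vessel cells, and neurons can run them too.

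In P8, replicates 5 to 9 differed from the remaining 15 arrays, with median intensities of 58.9 to 67.5 against 23.8 to 32.5. Their spike-in control probe sets averaged 6.80 to 7.52 in log2, against 4.07 to 4.48, and these arrays are given apart. The 3 ages were therefore compared over 6 P3 arrays, 4 P8 arrays (replicates 1 to 4) and 5 P21 arrays. Summed intensities of 17 measured neuron and bushy cell marker genes were 16472 to 18100 at P3, 21916 to 26857 in P8 replicates 1 to 4 and 24422 to 37850 at P21, and every one of them averaged above log2 4 at each age. Those of 15 oligodendrocyte and myelin markers were 1274 to 2721 at P3, 6960 to 10011 in P8 replicates 1 to 4 and 8332 to 12252 at P21, and 21 of their 22 tested probe sets rose from P3 to P21. The difference between 3' and 5' GAPDH control probe sets, a measure of RNA length, was 2.52 to 3.20 at P3, 2.91 to 3.86 in P8 replicates 1 to 4 and 3.30 to 4.71 at P21 (medians 2.94, 3.16 and 4.10). The same measure from actin ran the other way in its medians (4.73, 4.32 and 4.05), with ranges of 4.30 to 5.03, 4.07 to 4.46 and 3.84 to 5.51. Whether these shifts have a part in the age differences below was not tested.

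Promoter sequences show the 2 kinds of response element the members carry. RefSeq (build GRCr8) gave the 250 bases before the start of 34 of the 40 member genes, and these were searched on both strands for the kB decamer, the element NF-kB dimers bind, and for GAAANNGAAA, the core of the interferon-stimulated response element (ISRE). The kB decamer occurred in 15 of 34 member promoters (44.1%) and in 6.33% of all 33469 promoters, and the ISRE core in 7 (20.6%) and 3.41%. The 33469 were not limited to genes tested here. The members were chosen by name as response genes of these pathways, so these shares only describe them. The motifs share bases in none of the promoters shown. The members with an ISRE core were Myd88, Irf7, Cxcl10, Vcam1, Gbp2, Tap1 and B2m. Shown first are Irf7 and Gbp2, with an ISRE core alone, then Cxcl10, Vcam1 and Tap1, with both motifs, and last Cxcl1 and Nfkbia, with the kB decamer alone. Capitals mark the matches, runs where matches on both strands overlap included, and every sequence runs 5′ to 3′ towards the gene.
Irf7, chr1:205800024-205800273, minus strand: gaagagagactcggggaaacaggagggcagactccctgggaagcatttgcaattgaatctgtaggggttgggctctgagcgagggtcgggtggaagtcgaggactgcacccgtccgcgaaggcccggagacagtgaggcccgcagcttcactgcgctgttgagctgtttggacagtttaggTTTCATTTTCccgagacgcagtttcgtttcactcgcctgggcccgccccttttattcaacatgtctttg
Gbp2, chr2:234005477-234005726, plus strand: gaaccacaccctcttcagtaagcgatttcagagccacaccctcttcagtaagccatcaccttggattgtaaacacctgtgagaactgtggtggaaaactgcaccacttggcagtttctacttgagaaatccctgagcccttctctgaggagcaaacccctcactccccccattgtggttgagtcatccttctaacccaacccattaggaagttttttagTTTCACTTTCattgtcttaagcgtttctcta
Cxcl10, chr14:15988816-15989065, plus strand: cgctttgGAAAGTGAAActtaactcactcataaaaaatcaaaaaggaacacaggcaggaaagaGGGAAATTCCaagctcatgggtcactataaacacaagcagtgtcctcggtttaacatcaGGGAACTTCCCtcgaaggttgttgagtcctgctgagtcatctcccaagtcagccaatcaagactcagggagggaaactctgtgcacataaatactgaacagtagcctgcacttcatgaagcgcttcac
Vcam1, chr2:206742784-206743033, minus strand: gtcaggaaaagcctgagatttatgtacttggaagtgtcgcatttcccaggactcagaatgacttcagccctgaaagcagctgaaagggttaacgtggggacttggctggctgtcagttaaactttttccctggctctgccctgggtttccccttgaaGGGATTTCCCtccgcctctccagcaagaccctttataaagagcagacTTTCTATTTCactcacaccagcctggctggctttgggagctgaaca
Tap1, chr20:4668544-4668793, minus strand: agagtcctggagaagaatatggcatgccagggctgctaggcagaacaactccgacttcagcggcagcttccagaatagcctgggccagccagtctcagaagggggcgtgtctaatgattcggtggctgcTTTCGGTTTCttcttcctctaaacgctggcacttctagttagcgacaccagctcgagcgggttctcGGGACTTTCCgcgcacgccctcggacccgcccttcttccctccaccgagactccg
Cxcl1, chr14:17479322-17479571, minus strand: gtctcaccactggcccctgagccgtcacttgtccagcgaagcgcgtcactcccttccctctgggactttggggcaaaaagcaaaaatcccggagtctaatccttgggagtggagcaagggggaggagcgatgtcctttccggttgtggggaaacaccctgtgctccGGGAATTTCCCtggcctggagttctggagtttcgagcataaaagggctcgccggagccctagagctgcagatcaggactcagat
Nfkbia, chr6:78597073-78597322, minus strand: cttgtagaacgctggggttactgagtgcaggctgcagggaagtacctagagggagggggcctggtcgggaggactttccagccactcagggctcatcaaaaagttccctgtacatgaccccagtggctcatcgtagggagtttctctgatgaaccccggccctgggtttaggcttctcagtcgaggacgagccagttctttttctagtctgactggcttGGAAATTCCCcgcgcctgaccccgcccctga
Counted back from the gene's start, the matches in Cxcl10 began at -243 (ISRE core), -187 and -128 (kB), and that in Gbp2 at -31. A match is a string of letters in this window and says nothing on whether a factor was bound there.

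From P3 to P8 the members changed in 1 direction among those that passed the test. Of 41 probe sets, 0 rose and 17 fell at an adjusted p under 0.05 in limma's moderated test, where 7.61% of all tested probe sets rose and 7.71% fell. From P8 to P21 1 member rose (Nfkb1) and 2 fell (Vcam1 and Psmb9), against 8.20% of all in each direction. From P3 to P21 0 rose and 21 fell, against 19.8% and 18.7%. The 17 that fell by P8 were all among the 21 below P3 at P21, and both comparisons use the same P3 arrays. At P8 the arrays of 6 members lay wholly below those at P3, where 6.54% of all tested probe sets did so. At P21 those of 2 lay wholly below P8 (6.64%) and those of 2 wholly above (7.26%), and those of 8 wholly below P3 (13.4%). By role, from P3 to P8, 3 of 7 receptor and adaptor probe sets fell, 2 of 7 of NF-kB subunits and regulators, 2 of 8 of other transcription factors and Socs3, 4 of 4 of cytokines and chemokines, 3 of 6 of adhesion molecules and effectors and 3 of 9 of interferon-induced and antigen presentation genes. The median difference of the 41 was -1.30 at P8 against P3, 0.04 at P21 against P8 and -1.14 at P21 against P3, beside -0.019, 0.057 and 0.024 over all tested probe sets. Nfkbia, Ccl2, Cxcl1 and Tap1 passed the filter on dim probe sets through P3 arrays alone, so they had to differ. Of the other called members, Gbp2, Psmb9, Icam1 and Isg15 would not have passed it without P3 arrays. Their only later arrays above log2 4 were P8 replicate 2 in Gbp2, P8 replicate 3 in Psmb9 and P21 replicates 1 and 3 in Icam1. In Isg15 they were P8 replicate 4 and P21 replicate 1. Adjusted p-values of all these members, and these counts and medians, are descriptions only. With no filter, over all 51 member probe sets, 13, 3 and 22 passed the test in the 3 comparisons.

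The count from P3 to P8 changed with single arrays. It was 10 without P3 replicate 1, 9 without P3 replicate 2, 9 without P3 replicate 5, 10 without P3 replicate 6, 11 without P8 replicate 2 and 6 without P8 replicate 3. From P8 to P21 it was 1 without P8 replicate 3, without P21 replicate 3 or without P21 replicate 5. From P3 to P21 it ran from 14 to 23 with 1 array left out. In fits added after the data had been seen, the counts without P3 replicates 1 and 2 were 5, 2 and 11, without P3 replicates 5 and 6 they were 5, 3 and 12, and without P3 replicates 3 and 4 they were 23, 3 and 26.

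**Figure D1:**
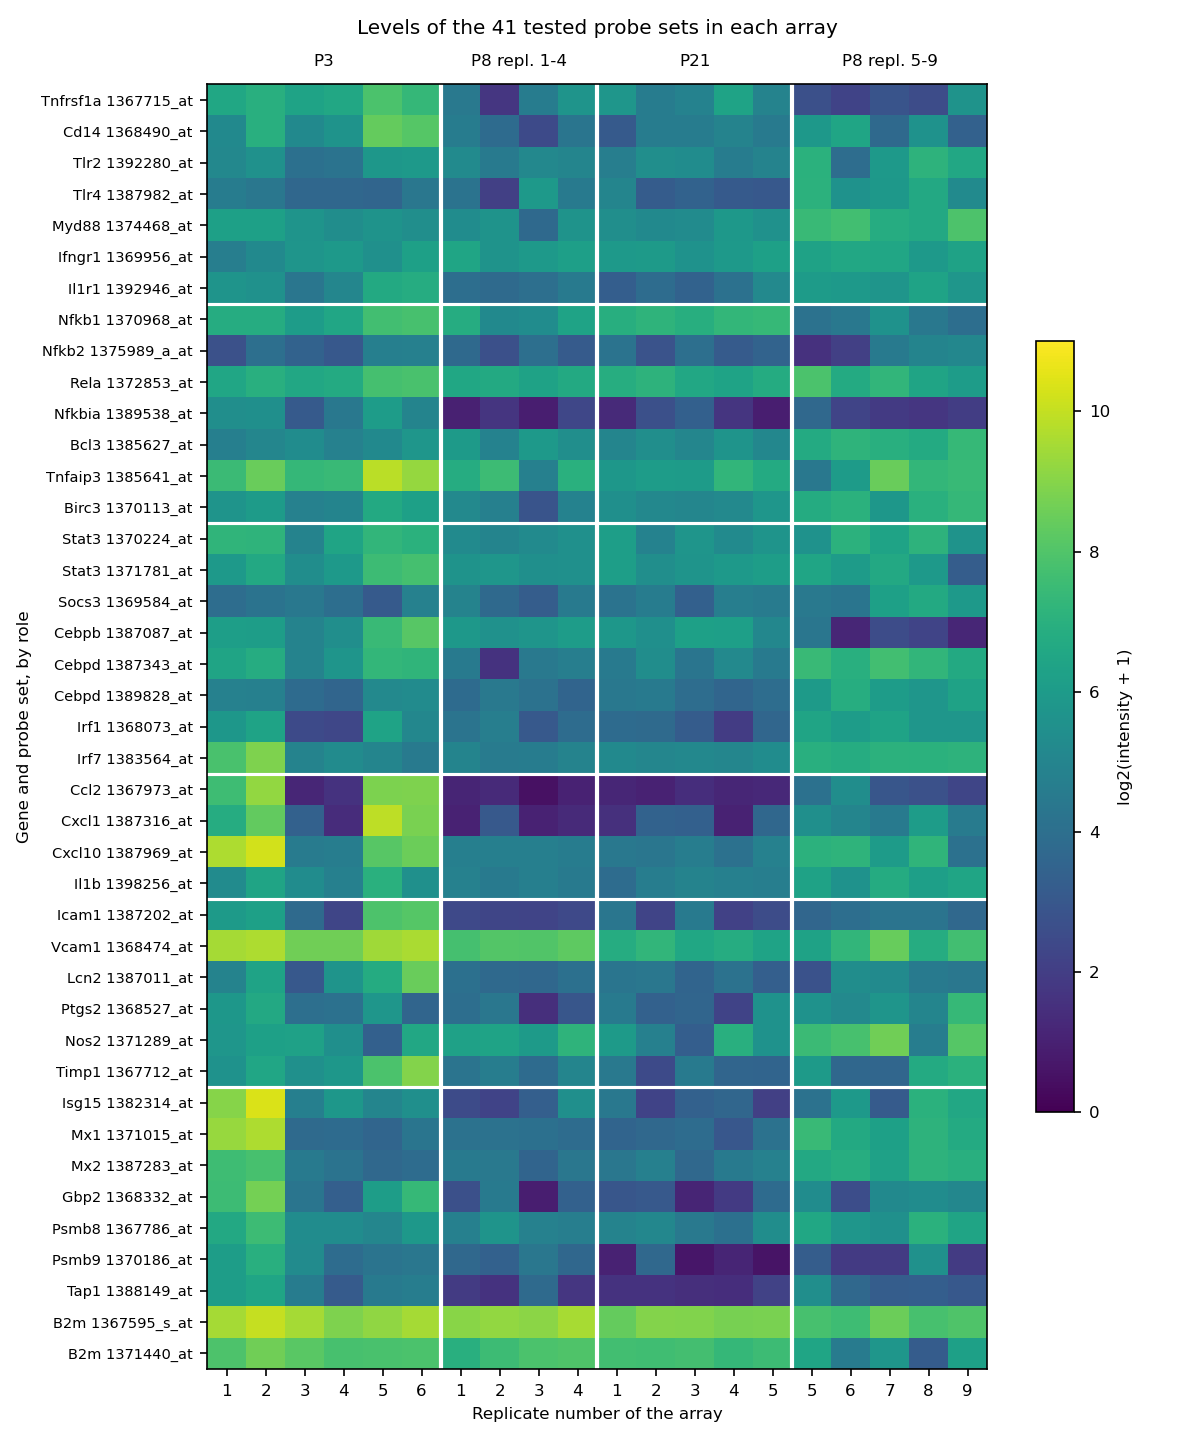
Levels, as log2(intensity + 1), of the 41 tested member probe sets (rows, by role) on each of 20 arrays (columns, by age and replicate number). Colour runs from dark (low) to yellow (high): Ccl2 and Cxcl1 are bright in P3 replicates 1, 2, 5 and 6 and dark in most other P3, P8 (1 to 4) and P21 arrays, and Mx1, Irf7 and Isg15 are bright in P3 replicates 1 and 2.

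The P3 animals did not share 1 level. Of the 41 members, 27 (65.9%) spanned more than 2 log2 units among the 6 P3 arrays, where 6.61% of all tested probe sets did so. In P8 replicates 1 to 4 it was 10 members (24.4%, against 16% of all) and at P21 9 (22.0%, against 10.9%). P3 replicate 1 lay above all 9 later arrays in 26 members, replicate 2 in 32, replicate 3 in 7, replicate 4 in 10, replicate 5 in 27 and replicate 6 in 29. Over all tested probe sets these shares were 15.4%, 14.0%, 12.9%, 13.8%, 14.6% and 16.4%. The member counts in this paragraph include Nfkbia, Ccl2, Cxcl1 and Tap1, which passed the filter through P3 arrays alone. They also include members that needed P3 arrays to pass, Gbp2, Psmb9, Icam1 and Isg15 among them. These counts are therefore descriptions only. The highest of the 15 arrays was P3 replicate 2 in 16 members (3.78% of all tested probe sets), replicate 5 in 9 (3.69%) and replicate 6 in 11 (7.79%). It was P8 replicate 1 in 3 members (4.52%) and P8 replicates 3 and 4 in 1 each (12.4% and 3.90%). In 0 members was it P3 replicate 1 (8.53%), 3 (4.21%) or 4 (3.46%), P8 replicate 2 (8.79%) or P21 replicates 1 to 5 (8.41%, 6.11%, 7.48%, 7.74% and 9.24%). Among the 6 P3 arrays alone, replicate 1 was highest in 1 member (20.6%), replicate 2 in 16 (13.1%), replicate 5 in 9 (11.9%), replicate 6 in 15 (24.4%) and replicates 3 and 4 in 0 (17.9% and 12.1%). Cd14, Vcam1 and Timp1 were the 3 members in which every P3 array lay above all 9 later ones. The P3 means below are therefore means over animals that differed, and each P3 array is given singly. Later arrays, here and below, are the 9 of P8 replicates 1 to 4 and P21, without P8 replicates 5 to 9.

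**Figure D2:**
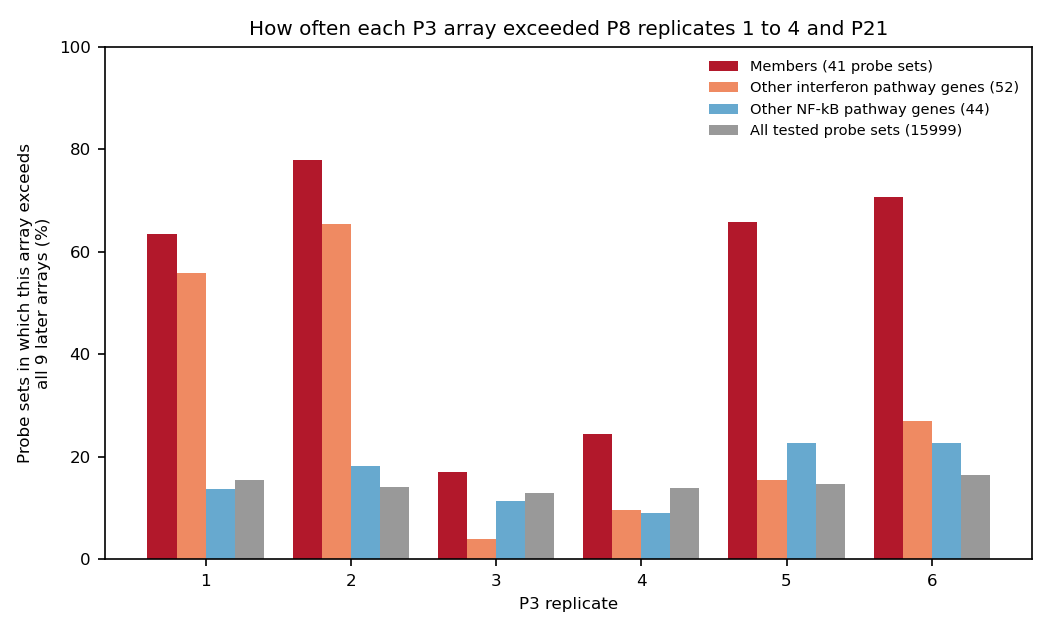
Share of tested probe sets, in percent, in which each P3 array (horizontal axis, replicate 1 to 6) lay above all 9 arrays of P8 replicates 1 to 4 and P21. Bars stand for the members, the other interferon pathway genes, the other NF-kB pathway genes and all tested probe sets: members reach 63.4%, 78.0%, 65.9% and 70.7% in replicates 1, 2, 5 and 6 and 17.1% and 24.4% in replicates 3 and 4. The members include some that passed the filter only with P3 arrays, so their shares are descriptions.

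The 4 tested cytokine and chemokine probe sets were lower at both later ages than at P3. Ccl2 and Cxcl1 passed the filter through P3 arrays alone, which fixed their direction, so their adjusted p-values below describe and add no support. Ccl2, which draws monocytes, was at 7.58, 9.20, 1.20, 1.63, 8.84 and 8.88 in P3 replicates 1 to 6, 1.14, 1.32, 0.49 and 1.07 in P8 replicates 1 to 4 and 1.20, 1.07, 1.43, 1.20 and 1.26 in P21 replicates 1 to 5. Its P3 values split widely: replicates 1, 2, 5 and 6 were far above every later array, and replicates 3 and 4 were at or close to the later levels. The difference from P3 was -5.22 ± 1.41 (SE; adjusted p = 0.0221) at P8 and -4.99 ± 1.32 (SE; adjusted p = 0.00775) at P21. Cxcl1, a neutrophil chemokine, was at 6.83, 8.34, 3.42, 1.38, 9.89 and 8.78 in P3 replicates 1 to 6, 1.07, 3.07, 1.07 and 1.32 in P8 replicates 1 to 4 and 1.54, 3.47, 3.38, 1.07 and 3.68 in P21 replicates 1 to 5. The same 4 P3 arrays exceeded every later array, replicate 3 lay among the higher later values and replicate 4 among the lower ones. It differed from P3 by -4.81 ± 1.34 (SE; adjusted p = 0.0258) at P8 and by -3.81 ± 1.26 (SE; adjusted p = 0.0261) at P21. Cxcl10, an interferon-induced T cell chemokine, was at 9.66, 10.23, 4.57, 4.67, 8.13 and 8.52 in P3 replicates 1 to 6, 4.73, 4.76, 4.73 and 4.61 in P8 replicates 1 to 4 and 4.41, 4.31, 4.67, 4.10 and 4.82 in P21 replicates 1 to 5. Here P3 replicates 1 and 2 were above replicates 5 and 6, and replicates 3 and 4 were within the narrow span of the later arrays. The differences were -2.92 ± 0.92 (SE; adjusted p = 0.0447) and -3.17 ± 0.87 (SE; adjusted p = 0.00928). Il1b, the cytokine interleukin-1 beta, was at 5.32, 6.43, 5.36, 4.79, 6.97 and 5.52 in P3 replicates 1 to 6, 4.85, 4.53, 4.73 and 4.49 in P8 replicates 1 to 4 and 3.87, 4.68, 4.92, 4.79 and 4.69 in P21 replicates 1 to 5. Its P3 arrays were higher by less, with replicate 4 inside the later range, and the differences were -1.08 ± 0.35 (SE; adjusted p = 0.0484) and -1.14 ± 0.33 (SE; adjusted p = 0.0122).

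Several of these calls at P8 were near the threshold. The Cxcl10 call at P8 was lost without any 1 of the P3, P8 or P21 arrays other than P3 replicates 3 and 4, with adjusted p up to 0.0853. For Il1b at P8 it was lost without any 1 array but P3 replicate 4 and P21 replicate 1, up to 0.0971. Cxcl1 lost its call at P8 without P8 replicate 1 (0.0539), replicate 3 (0.0601) or replicate 4 (0.0502), and at P21 without P21 replicate 1 (0.0586) or 4 (0.0633). Ccl2 lost it at P8 without P8 replicate 3 (0.0521). Il6 and Tnf, the main inflammatory cytokines beside Il1b, had no probe set past the filter. Il6 read 2.81, 4.96, 2.72, 0.68, 4.57 and 2.46 in P3 replicates 1 to 6, so replicates 2 and 5 were its highest there. It reached at most 3.23 in P8 replicates 1 to 4 and P21, and read 2.49 to 5.16 in P8 replicates 5 to 9. The brighter Tnf probe set read 3.46, 4.52, 2.63, 2.20, 5.05 and 3.97 in P3 replicates 1 to 6. It reached at most 3.60 in P8 replicates 1 to 4 and P21, and read 3.88 to 5.64 in P8 replicates 5 to 9.

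Among receptors and adaptors, 3 of 7 probe sets fell from P3 to P8 and to P21. Tnfrsf1a, the main receptor of tumour necrosis factor, was at 6.57, 6.92, 6.36, 6.60, 7.90 and 7.32 in P3 replicates 1 to 6, 4.43, 1.72, 4.63 and 5.70 in P8 replicates 1 to 4 and 5.78, 4.64, 4.87, 6.39 and 4.91 in P21 replicates 1 to 5. All P3 arrays were above all of P8 replicates 1 to 4, and P21 replicate 4 was slightly above the lowest P3 array. It differed from P3 by -2.83 ± 0.60 (SE; adjusted p = 0.00636) at P8 and by -1.63 ± 0.56 (SE; adjusted p = 0.0315) at P21. Cd14, a co-receptor for bacterial lipopolysaccharide, was at 5.23, 6.94, 5.21, 5.63, 8.42 and 8.11 in P3 replicates 1 to 6, 4.60, 3.84, 2.46 and 4.27 in P8 replicates 1 to 4 and 3.10, 4.62, 4.64, 4.94 and 4.50 in P21 replicates 1 to 5. P3 replicates 5 and 6 were highest, and the lowest P3 array was still above all of P8 replicates 1 to 4 and P21. P8 replicates 5 to 9 read 3.41 to 6.46 and overlapped the P3 arrays. The differences were -2.80 ± 0.66 (SE; adjusted p = 0.0114) and -2.23 ± 0.62 (SE; adjusted p = 0.00990). Il1r1, the signalling receptor of interleukin-1, was at 5.68, 5.57, 4.30, 5.04, 6.69 and 6.82 in P3 replicates 1 to 6, 3.97, 3.81, 4.03 and 4.48 in P8 replicates 1 to 4 and 3.28, 3.88, 3.45, 4.09 and 5.19 in P21 replicates 1 to 5 on the 1 of its 3 probe sets that was tested. P3 replicates 5 and 6 were again highest, and replicate 3 lay within the P8 range. Its differences from P3 were -1.61 ± 0.46 (SE; adjusted p = 0.0275) and -1.71 ± 0.43 (SE; adjusted p = 0.00547). The Tnfrsf1a call at P21 was lost without P3 replicate 5 (adjusted p = 0.0683), P3 replicate 6 (0.0572), or P21 replicate 2 (0.0756), 3 (0.0691) or 5 (0.0653). That of Il1r1 at P8 was lost without P3 replicate 5 (0.0576), P3 replicate 6 (0.0516), or P8 replicate 1 (0.0535), 2 (0.0667) or 3 (0.0567). Neither Toll-like receptor passed the test. The adaptor Myd88 and the interferon gamma receptor Ifngr1 did not pass it either, with -0.68 ± 0.33 (SE; adjusted p = 0.172) and 0.51 ± 0.26 (SE; adjusted p = 0.198) from P3 to P8.

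The inhibitors Nfkbia and Tnfaip3 were lower at both later ages than at P3. Nfkbia passed the filter through P3 arrays alone, which fixed its direction, so its p-values are a description. Nfkbia, which encodes the inhibitor IkB alpha and is itself an NF-kB target, was at 5.44, 5.49, 3.12, 4.39, 6.08 and 4.96 in P3 replicates 1 to 6, 1.00, 1.68, 0.93 and 2.35 in P8 replicates 1 to 4 and 1.32, 2.68, 3.39, 1.68 and 0.93 in P21 replicates 1 to 5. All P3 arrays were above P8 replicates 1 to 4, and P3 replicate 3 was the lowest of them and below P21 replicate 3. It differed from P3 by -3.43 ± 0.56 (SE; adjusted p = 0.00151) at P8 and by -2.92 ± 0.52 (SE; adjusted p = 4.97e-04) at P21. Tnfaip3, the ubiquitin-editing inhibitor A20, was at 7.50, 8.47, 7.32, 7.46, 9.85 and 9.24 in P3 replicates 1 to 6, 6.82, 7.54, 4.81 and 7.00 in P8 replicates 1 to 4 and 5.83, 6.09, 6.02, 7.22 and 6.73 in P21 replicates 1 to 5. P3 replicates 5 and 6 were highest, replicate 2 followed, and P8 replicate 2 lay just above the other 3, with every P21 array below every P3 array. Its differences were -1.76 ± 0.57 (SE; adjusted p = 0.0484) and -1.93 ± 0.53 (SE; adjusted p = 0.00985), the former lost without any 1 array other than P3 replicates 1, 3 and 4 and P8 replicate 2 (adjusted p up to 0.150).

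Nfkb1, the p105 and p50 subunit, was at 6.82, 6.82, 6.10, 6.50, 7.68 and 7.78 in P3 replicates 1 to 6, 6.82, 5.22, 5.36 and 6.36 in P8 replicates 1 to 4 and 6.91, 7.16, 6.90, 7.28 and 7.38 in P21 replicates 1 to 5. Its 5 P21 arrays all lay above P8 replicates 1 to 4, by 1.19 ± 0.37 (SE; adjusted p = 0.0394), and this was the only member that rose in any comparison. The call was lost without P3 replicate 2 (0.0504), P8 replicate 2 (0.120) or 3 (0.111), or any 1 P21 array (0.0508 to 0.0756). From P3 to P8 and from P3 to P21 Nfkb1 did not pass the test, with -1.01 ± 0.35 (SE; adjusted p = 0.0672) and 0.18 ± 0.33 (SE; adjusted p = 0.712). Rela, the p65 subunit, had P3 values of 6.50, 6.96, 6.61, 6.72, 7.74 and 7.86 in P3 replicates 1 to 6, with replicates 5 and 6 highest, and differences of -0.50 ± 0.27 (SE; adjusted p = 0.215) and -0.33 ± 0.25 (SE; adjusted p = 0.320). Nfkb2, the co-activator Bcl3 and the apoptosis inhibitor Birc3 did not pass it in any comparison, Birc3 with -1.32 ± 0.43 (SE; adjusted p = 0.0535) from P3 to P8.

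Vcam1, an adhesion molecule for white blood cells, was the 1 member that fell over both intervals. It was at 9.51, 9.66, 8.61, 8.63, 9.45 and 9.61 in P3 replicates 1 to 6, 7.74, 8.05, 8.00 and 8.28 in P8 replicates 1 to 4 and 6.79, 7.25, 6.55, 6.83 and 6.40 in P21 replicates 1 to 5. These 3 sets did not overlap: every P3 array was above P8 replicates 1 to 4 and these above every P21 array. P3 replicates 3 and 4 were again the lowest at P3. P8 replicates 5 to 9 read 6.34 to 8.45 and overlapped the P21 arrays. The steps were -1.23 ± 0.24 (SE; adjusted p = 0.00457) from P3 to P8 and -1.25 ± 0.25 (SE; adjusted p = 0.00366) from P8 to P21, and -2.48 ± 0.23 (SE; adjusted p = 1.19e-06) from P3 to P21. With P8 replicates 5 to 9 counted as P8, the step from P8 to P21 did not pass the test (adjusted p = 0.0705).

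Icam1, another adhesion molecule and NF-kB target, was at 6.00, 6.25, 3.80, 2.29, 7.94 and 8.09 in P3 replicates 1 to 6, 2.41, 2.29, 2.26 and 2.43 in P8 replicates 1 to 4 and 4.31, 2.26, 4.49, 2.14 and 2.54 in P21 replicates 1 to 5. P3 replicates 5 and 6, then 2 and 1, were above all later arrays, and replicates 3 and 4 lay among the P21 values. Icam1 would not have passed the filter without P3 arrays. It differed from P3 by -3.38 ± 0.94 (SE; adjusted p = 0.0256) at P8 and by -2.58 ± 0.88 (SE; adjusted p = 0.0311) at P21. The call at P8 was lost without P3 replicate 5 (adjusted p = 0.0531) or P8 replicate 2 (0.0532) or 3 (0.0540), and that at P21 without any 1 of P3 replicates 1, 2, 5 and 6 or P21 replicates 2, 4 and 5 (0.0532 to 0.0721). Timp1, an inhibitor of matrix metalloproteinases, was at 5.61, 6.51, 5.51, 5.84, 7.90 and 8.95 in P3 replicates 1 to 6, 4.25, 4.66, 3.86 and 5.00 in P8 replicates 1 to 4 and 4.45, 2.46, 4.47, 3.57 and 3.54 in P21 replicates 1 to 5. P3 replicates 5 and 6 stood out, and all P3 arrays were above all of P8 replicates 1 to 4 and P21. P8 replicates 5 to 9 read 3.63 to 7.03 and overlapped the P3 arrays. The differences were -2.28 ± 0.62 (SE; adjusted p = 0.0224) and -3.02 ± 0.58 (SE; adjusted p = 8.07e-04), the former lost without P8 replicate 3 (0.0608). Lcn2, the iron-sequestering protein lipocalin 2, was at 4.94, 6.39, 3.05, 5.68, 6.76 and 8.47 in P3 replicates 1 to 6, 4.07, 3.77, 3.68 and 4.04 in P8 replicates 1 to 4 and 4.26, 4.36, 3.56, 4.15 and 3.35 in P21 replicates 1 to 5. P3 replicate 6 was highest and replicate 3 below all later arrays. Lcn2 fell from P3 to P21, by -1.95 ± 0.66 (SE; adjusted p = 0.0300), and had -2.0 ± 0.71 (SE; adjusted p = 0.0689) from P3 to P8. The call at P21 was lost without P3 replicate 2 (0.0574) or 5 (0.0631) or P21 replicate 3 (0.0623) or 5 (0.0651). The enzymes Ptgs2 and Nos2 did not pass the test in any comparison, and Nos2 had its lowest P3 value, 3.36, in replicate 5.

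**Figure D3:**
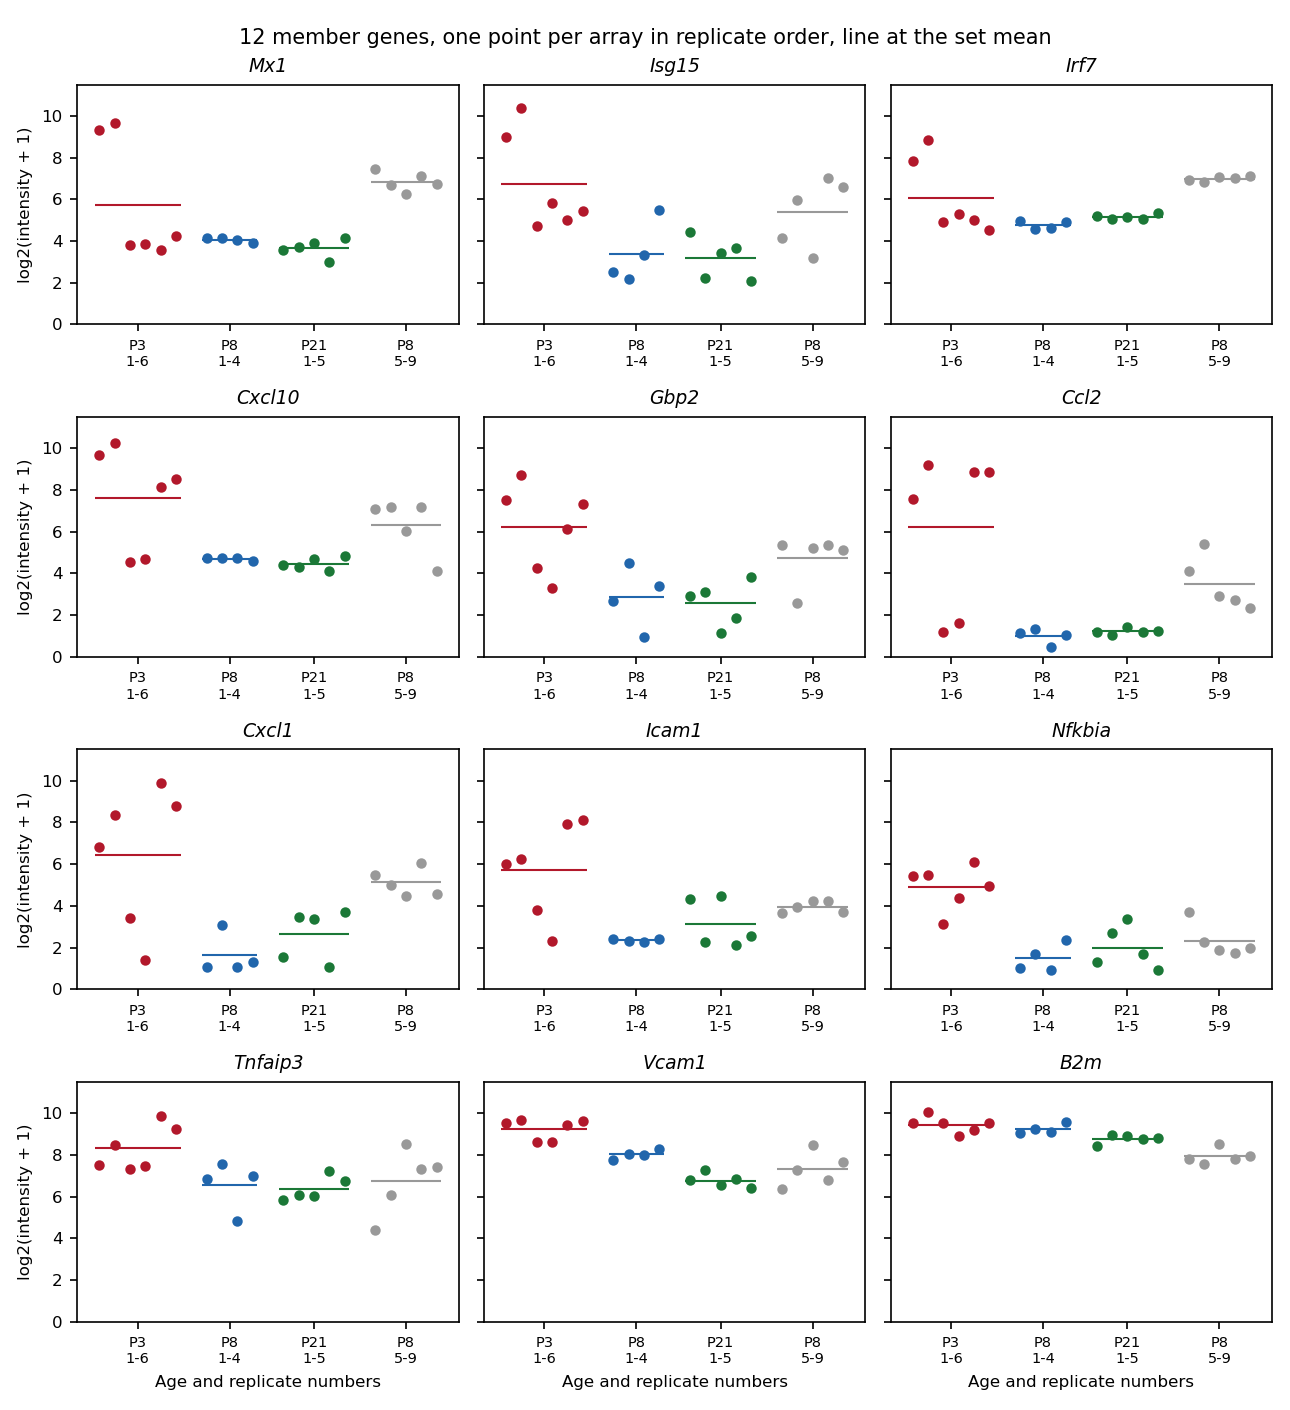
Levels, as log2(intensity + 1), of 12 member genes with 1 point per array in replicate order and a line at the mean of each set, P8 replicates 5 to 9 in grey. In P3 replicates 1 to 6 Mx1 reads 9.30, 9.65, 3.79, 3.84, 3.58 and 4.26 and Ccl2 7.58, 9.20, 1.20, 1.63, 8.84 and 8.88, while Vcam1 steps down from P3 to P8 replicates 1 to 4 to P21, with P8 replicates 5 to 9 at 6.34 to 8.45.

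The interferon-induced genes followed another order among the P3 animals. Mx1, an antiviral GTPase, was at 9.30, 9.65, 3.79, 3.84, 3.58 and 4.26 in P3 replicates 1 to 6, 4.15, 4.14, 4.07 and 3.88 in P8 replicates 1 to 4 and 3.55, 3.71, 3.90, 3.00 and 4.15 in P21 replicates 1 to 5. P3 replicates 1 and 2 stood far above all other arrays, and replicates 3 to 6 lay within or near the later range. Its differences did not pass the test, with -1.68 ± 1.10 (SE; adjusted p = 0.319) at P8 and -2.08 ± 1.03 (SE; adjusted p = 0.125) at P21. Irf7, the factor that amplifies the interferon response, was at 7.83, 8.86, 4.92, 5.30, 4.99 and 4.52 in P3 replicates 1 to 6, 4.97, 4.59, 4.60 and 4.91 in P8 replicates 1 to 4 and 5.21, 5.05, 5.15, 5.05 and 5.36 in P21 replicates 1 to 5. The same 2 P3 arrays were high and the other 4 were not, so its difference of -1.30 ± 0.68 (SE; adjusted p = 0.211) at P8 did not pass it either. On the brighter probe set of Mx2 these 2 arrays read 7.58 and 7.80 and every other P3, P21 and P8 (1 to 4) array at most 4.83.

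Isg15, a ubiquitin-like protein, was at 9.00, 10.37, 4.73, 5.83, 5.02 and 5.46 in P3 replicates 1 to 6, 2.51, 2.20, 3.35 and 5.49 in P8 replicates 1 to 4 and 4.42, 2.23, 3.42, 3.64 and 2.10 in P21 replicates 1 to 5. It was highest in P3 replicates 1 and 2, yet P3 replicates 3 to 6 also exceeded every P21 array, and its differences were -3.35 ± 1.03 (SE; adjusted p = 0.0403) and -3.57 ± 0.97 (SE; adjusted p = 0.00892). The call at P8 was lost without P3 replicate 1 (adjusted p = 0.0780), 2 (0.0614) or 4 (0.0510) or P8 replicate 1 (0.0891), 2 (0.104) or 3 (0.0757). Gbp2, a guanylate-binding protein induced by interferon gamma, was at 7.52, 8.72, 4.26, 3.32, 6.14 and 7.35 in P3 replicates 1 to 6, 2.70, 4.48, 0.93 and 3.41 in P8 replicates 1 to 4 and 2.93, 3.09, 1.14, 1.85 and 3.84 in P21 replicates 1 to 5. Neither Isg15 nor Gbp2 would have passed the filter without P3 arrays. In Gbp2, as in Cxcl10, P3 replicates 1, 2, 5 and 6 were all above every later array. Its differences were -3.34 ± 0.96 (SE; adjusted p = 0.0291) and -3.65 ± 0.90 (SE; adjusted p = 0.00484). The former was lost without P3 replicate 1 (0.0582), 2 (0.0567) or 6 (0.0566) or P8 replicate 1 (0.0554) or 3 (0.0918).

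Psmb9, Tap1 and Psmb8, of class I antigen presentation, were also highest in P3 replicates 1 and 2. Psmb9, an immunoproteasome subunit, was at 6.11, 6.95, 5.32, 3.89, 4.22 and 4.37 in P3 replicates 1 to 6, 3.70, 3.42, 4.34 and 3.67 in P8 replicates 1 to 4 and 1.07, 3.70, 0.68, 1.14 and 0.58 in P21 replicates 1 to 5. All P3 arrays were above all P21 arrays, and P21 replicate 2 was far above the other 4. Psmb9 would not have passed the filter without P3 arrays. It fell by 3.71 ± 0.60 (SE; adjusted p = 2.04e-04) from P3 to P21 and by 2.35 ± 0.66 (SE; adjusted p = 0.0250) from P8 to P21. The latter call was lost without P8 replicate 3 (0.0667), P21 replicate 3 (0.0594) or P21 replicate 5 (0.0569). Tap1, a subunit of the peptide transporter, was at 6.13, 6.46, 4.60, 3.14, 4.49 and 4.68 in P3 replicates 1 to 6, 1.93, 1.63, 3.82 and 1.72 in P8 replicates 1 to 4 and 1.63, 1.63, 1.49, 1.43 and 2.17 in P21 replicates 1 to 5 on its tested probe set. Every P3 array was above every P21 array, with P8 replicate 3 inside the P3 range. It too passed the filter through P3 arrays alone. The differences were -2.64 ± 0.56 (SE; adjusted p = 0.00649) and -3.25 ± 0.52 (SE; adjusted p = 2.04e-04). Psmb8, another immunoproteasome subunit, was at 6.63, 7.55, 5.36, 5.33, 5.04 and 5.88 in P3 replicates 1 to 6, 4.78, 5.70, 4.85 and 4.69 in P8 replicates 1 to 4 and 4.94, 5.10, 4.43, 4.05 and 5.38 in P21 replicates 1 to 5. Replicates 1 and 2 were the highest at P3, replicate 6 was just above every later array, replicates 3 to 5 overlapped the later ages, and the difference at P21 was -1.18 ± 0.41 (SE; adjusted p = 0.0312). It was lost without P3 replicate 1 (0.0667) or 2 (0.0533) or P21 replicate 3 (0.0699) or 4 (0.0813).

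B2m, the light chain of class I molecules, was read by 2 probe sets. On the brighter one it was at 9.50, 10.04, 9.53, 8.89, 9.17 and 9.51 in P3 replicates 1 to 6, 9.04, 9.23, 9.10 and 9.57 in P8 replicates 1 to 4 and 8.42, 8.96, 8.90, 8.75 and 8.78 in P21 replicates 1 to 5. It changed little, with P3 replicate 2 highest and every P21 array below P8 replicates 1 to 4, and the difference from P3 to P21 was -0.68 ± 0.19 (SE; adjusted p = 0.0103). The other was at 7.92, 8.61, 8.18, 7.81, 7.84 and 7.88 in P3 replicates 1 to 6, 6.92, 7.54, 7.88 and 7.95 in P8 replicates 1 to 4 and 7.65, 7.62, 7.70, 7.34 and 7.56 in P21 replicates 1 to 5 and did not pass the test, with -0.47 ± 0.20 (SE; adjusted p = 0.0747) at P21, although every P21 array lay below every P3 array.

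Of the other transcription factors, Stat3, which carries signals of interleukin-6 type cytokines, fell on 1 of its 2 probe sets. This was at 7.19, 7.17, 4.92, 6.43, 7.25 and 7.03 in P3 replicates 1 to 6, 5.27, 4.97, 5.25 and 5.52 in P8 replicates 1 to 4 and 6.15, 4.87, 5.75, 5.26 and 5.68 in P21 replicates 1 to 5. P3 replicate 3 was far below the other 5 and within the later range, and the differences were -1.41 ± 0.39 (SE; adjusted p = 0.0257) and -1.12 ± 0.37 (SE; adjusted p = 0.0256). Both calls were lost without P3 replicate 1, 2 or 5 (adjusted p = 0.0515, 0.0539 and 0.0551 at P8 and 0.0544, 0.0551 and 0.0569 at P21). That at P8 was also lost without P8 replicate 2 (0.0655) or 3 (0.0519), and that at P21 without P3 replicate 6 (0.0507) or P21 replicate 2 (0.0702) or 4 (0.0565). On the other Stat3 probe set P3 replicates 5 and 6 were highest, at 7.53 and 7.76, and the difference at P8 was -0.92 ± 0.38 (SE; adjusted p = 0.119). Cebpd, a factor of the acute phase response, was at 6.43, 6.82, 4.93, 5.74, 7.29 and 7.21 in P3 replicates 1 to 6, 4.52, 1.63, 4.43 and 4.69 in P8 replicates 1 to 4 and 4.47, 5.40, 4.29, 5.18 and 4.50 in P21 replicates 1 to 5 on the brightest of its 3 probe sets. Every P3 array was above P8 replicates 1 to 4, among which replicate 2 stood low, and P3 replicate 3 lay within the P21 range. It differed by -2.58 ± 0.58 (SE; adjusted p = 0.00872) and -1.64 ± 0.54 (SE; adjusted p = 0.0262). The latter was lost without P3 replicate 2 (0.0508), 5 (0.0580) or 6 (0.0552) or P21 replicate 1 (0.0542), 3 (0.0601) or 5 (0.0526). Counting P8 replicates 5 to 9 as P8, the difference at P8 was -0.71 (adjusted p = 0.456). The other tested Cebpd probe set did not pass the test, with -0.59 ± 0.33 (SE; adjusted p = 0.243) at P8 and -0.51 ± 0.31 (SE; adjusted p = 0.207) at P21. Cebpb had its highest values in P3 replicates 5 and 6, 7.45 and 8.13, and did not pass the test. Irf1, a factor that interferon gamma and NF-kB both induce, read 5.82, 6.39, 2.46, 2.35, 6.37 and 5.11 in P3 replicates 1 to 6, so replicates 3 and 4 were far below the others, and its difference was -0.77 ± 0.78 (SE; adjusted p = 0.535) at P8. Socs3, the feedback inhibitor of Stat3, had the smallest difference of the group from P3 to P8, 0.03 ± 0.37 (SE; adjusted p = 0.967), and its sign turned when single arrays were left out.

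**Figure D4:**
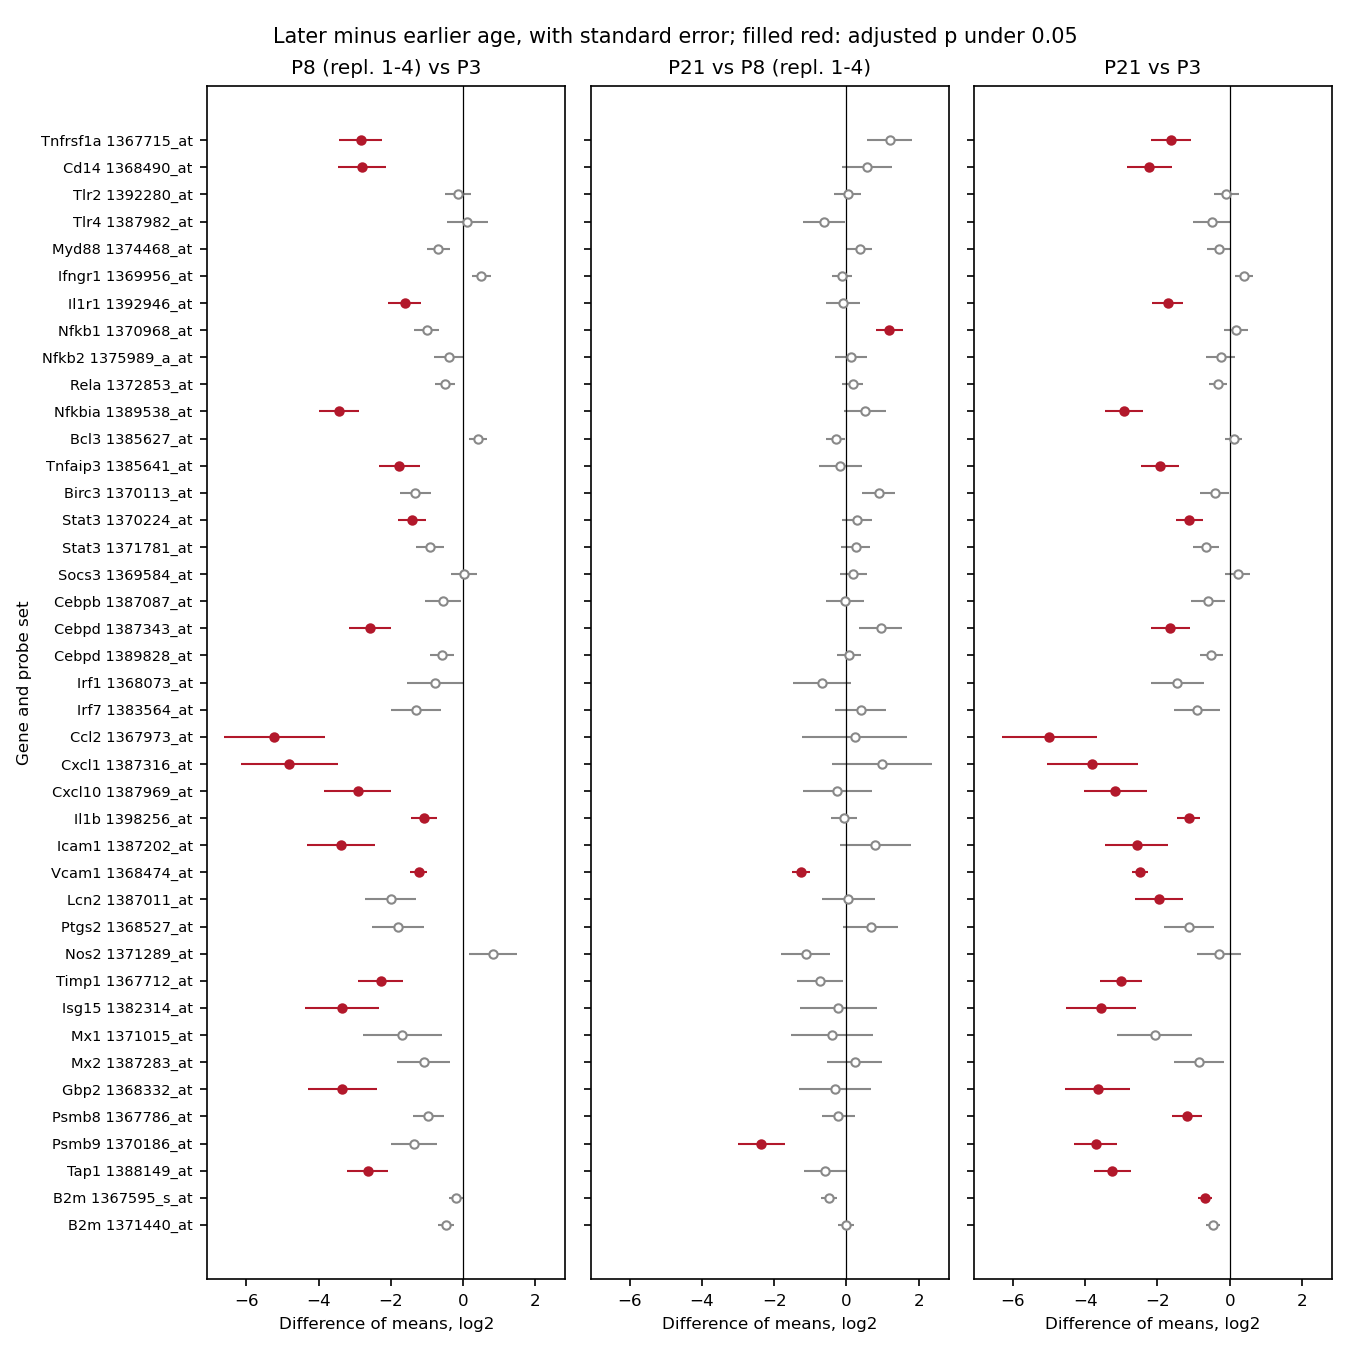
Difference of mean log2 level, later minus earlier age, with its standard error, for the 41 tested member probe sets in the 3 comparisons, filled red where the adjusted p was under 0.05. The filled points lie left of 0 in P8 vs P3 (17) and P21 vs P3 (21), and the 3 in P21 vs P8 are Nfkb1 at 1.19, Vcam1 at -1.25 and Psmb9 at -2.35.

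The motifs can be set beside the P3 array in which each member was highest. All 7 members with an ISRE core read highest, among P3 arrays, in replicate 2, some by little. Vcam1 read 9.66 there and 9.61 in replicate 6, and Myd88 6.26 there and 6.24 in replicate 1. Of the 10 tested members with a kB decamer and no ISRE core, 9 read highest in replicate 5 or 6, and Irf1 in replicate 2, at 6.39 beside 6.37 in replicate 5. Of the 15 with neither motif, 10 read highest in replicate 5 or 6 and 4 in replicate 2 (Ptgs2, Mx1, Psmb8 and Psmb9). Among all 9959 tested genes with a promoter window, replicate 2 was the highest P3 array in 12.9%, in 26.5% of the 245 with an ISRE core and in 13.5% of the 816 with a kB decamer and no ISRE core. Replicate 5 was highest in 12.6%, 8.57% and 12.0% and replicate 6 in 25.3%, 24.9% and 27.7% of the same sets. For replicate 1, where interferon-induced genes were also high, the shares were 17.2%, 13.9% and 18.5%. These shares are across genes, which are not independent.

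Other genes of the interferon pathway were also high in P3 replicates 1 and 2. Of 52 tested probe sets (40 genes), 29 lay above all 9 later arrays in P3 replicate 1 and 34 in replicate 2. In replicates 3 to 6 it was 2, 5, 8 and 14. Over all tested probe sets these shares were 15.4%, 14.0%, 12.9%, 13.8%, 14.6% and 16.4% in replicates 1 to 6. At P3 25 of the 52 (48.1%) spanned more than 2 log2 units, against 6.61% of all. Rsad2, the antiviral enzyme viperin, read 10.33, 10.86, 5.54, 5.49, 4.89 and 5.22 in P3 replicates 1 to 6. Ifit2, an interferon-induced RNA-binding protein, read 10.23, 10.43, 3.85, 4.18, 4.03 and 3.12 in P3 replicates 1 to 6. Both had a gap of several units between replicates 1 and 2 and the rest. In the tests 0 rose and 5 fell (9.62%) from P3 to P8, where 7.71% of all tested probe sets fell. At P21 against P8, 0 rose and 1 fell (1.92%), against 8.20% of all. At P21 against P3, 3 rose (5.77%) and 8 fell (15.4%), against 19.8% and 18.7% of all. Ifitm3, a membrane protein that blocks virus entry, fell by 2.38 ± 0.47 (SE; adjusted p = 0.00440) from P3 to P8, and Ifi44 by 2.50 ± 0.64 (SE; adjusted p = 0.0167). The receptor chain Ifnar2 fell by 1.28 ± 0.35 (SE; adjusted p = 0.0215) from P8 to P21 on 1 probe set, and the kinase Jak2 fell by 1.95 ± 0.38 (SE; adjusted p = 8.45e-04) from P3 to P21. Jak2 would not have passed the filter without P3 arrays, so its p-value is a description. It read 4.51 to 4.99 at P3 and at most 4.00 in P8 replicates 1 to 4 and P21. Of 27 other antigen presentation probe sets, 0 rose and 3 fell (11.1%) from P3 to P8, against 7.61% and 7.71% of all. At P21 against P8, 1 rose (3.70%) and 2 fell (7.41%), and at P21 against P3, 4 rose and 4 fell (14.8% each), below the shares of all tested probe sets. Psme1, an activator subunit of the immunoproteasome, fell by 2.69 ± 0.20 (SE; adjusted p = 3.10e-06) from P8 to P21, and its partner Psme2 by 1.06 ± 0.22 (SE; adjusted p = 0.00526) from P3 to P8. Psme1 read 8.11 to 8.52 at P3 and 5.25 to 5.77 at P21, so all P21 arrays were below all P3 arrays. It read 7.61 to 8.65 in P8 replicates 1 to 4 but 3.26 to 5.34 in P8 replicates 5 to 9, which were not above P21.

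Among other genes of the NF-kB pathway, 44 probe sets (39 genes) were tested. From P3 to P8, 3 rose (6.82%, against 7.61% of all) and 6 fell (13.6%, against 7.71%). At P21 against P8, 2 rose (4.55%) and 1 fell (2.27%), against 8.20% of all each way. At P21 against P3, 7 rose (15.9%, against 19.8%) and 5 fell (11.4%, against 18.7%), and 5 (11.4%, against 6.61%) spanned more than 2 log2 units at P3. Nfkbiz, an inducible nuclear regulator of NF-kB, read 6.79, 6.75, 4.24, 4.82, 8.83 and 7.69 in P3 replicates 1 to 6, an order like that of Cxcl1, and fell by 2.77 ± 0.71 (SE; adjusted p = 0.0174) from P3 to P8. Traf3, an adaptor that restrains the alternative NF-kB route, read 7.39 to 7.62 at P3 and 8.84 to 9.22 in P8 replicates 1 to 4. It rose by 1.56 ± 0.14 (SE; adjusted p = 2.28e-05), with all P8 arrays of that set above all P3 arrays. P8 replicates 5 to 9 read 4.85 to 7.40 and were not above the P3 arrays. Cflar, which blocks caspase-8, fell by 2.24 ± 0.32 (SE; adjusted p = 7.29e-05) from P3 to P21 on 1 probe set. Its other tested probe set did not fall, at 2.79 to 4.31 at P3 and 4.15 to 4.80 at P21. The kinase Tbk1 rose by 0.84 ± 0.22 (SE; adjusted p = 0.0150) from P8 to P21. Of 32 probe sets of other genes of gp130 receptors and STAT3 (23 genes), 3 rose (9.38%, against 7.61% of all) and 5 fell (15.6%, against 7.71%) from P3 to P8. At P21 against P8, 3 rose and 3 fell (9.38% each, against 8.20% of all each way). At P21 against P3, 5 rose (15.6%, against 19.8%) and 7 fell (21.9%, against 18.7%). Fos, an immediate early gene, fell by 2.12 ± 0.43 (SE; adjusted p = 0.00484) from P3 to P8, and Mcl1, a survival factor, by 2.45 ± 0.32 (SE; adjusted p = 3.21e-05) from P3 to P21 on its brighter tested probe set. Bcl6, a repressor, rose by 2.25 ± 0.42 (SE; adjusted p = 0.00211) from P8 to P21.

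Marker sums of other cell types varied among the P3 arrays too, and are given beside the members. The summed intensity of 21 measured microglia markers (of 24 listed) was 638, 1154, 1047, 1067, 1143 and 1155 in P3 replicates 1 to 6, 434 to 880 in P8 replicates 1 to 4 and 825 to 1205 at P21. Replicate 1, which had high interferon-induced genes, was the lowest of the 6, and 4 of the 21 genes averaged below log2 4 at P3, against 9 in P8 replicates 1 to 4 and 8 at P21. The sum of 23 endothelial and pericyte markers (of 24) was 1103, 1347, 1756, 1649, 1478 and 1620 in the same order, 1110 to 1636 in P8 replicates 1 to 4 and 1492 to 1907 at P21. That of 14 fibroblast and meningeal markers was 788, 1479, 659, 951, 2819 and 1911, 920 to 1658 and 1001 to 1742. Most of the sum in replicates 5 and 6, in which Timp1, Cd14 and Cebpb were highest, came from Mgp (11.07 and 10.22). Without Mgp the sums were 645, 1017, 583, 612, 678 and 719, highest in replicate 2, as was the mean log2 level of the list (5.68). The part of these markers in the members' values was not tested. Astrocyte marker sums were 8496, 11638, 12805, 12335, 14334 and 16032 at P3, 8436 to 13187 in P8 replicates 1 to 4 and 9373 to 11554 at P21, highest in replicates 5 and 6, while their mean log2 level was 7.70, 8.07, 8.36, 8.37, 8.20 and 8.43.

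P8 replicates 5 to 9 read the members differently from P8 replicates 1 to 4. All 5 lay above all 4 in 16 of the 41 members (39.0%, against 21.5% of all tested probe sets) and below them in 3 (7.32%, against 15.7%). Mx1 read 6.24 to 7.47 in replicates 5 to 9 and 3.88 to 4.15 in replicates 1 to 4, and Irf7 6.83 to 7.11 and 4.59 to 4.97. Cxcl1 read 4.49 to 6.07 against 1.07 to 3.07, and Ccl2 2.32 to 5.41 against 0.49 to 1.32. Cebpb, at 1.20 to 4.31 against 5.56 to 6.10, and both B2m probe sets were the 3 that were lower. In these 5 arrays 20 members (48.8%) spanned more than 2 log2 units, near the 40.0% of all tested probe sets. Their microglia marker sum was 1847 to 2205, above every other array. These arrays also had the high median intensities and spike-in levels given above. Their differences between 3' and 5' control probe sets were 0.72 to 2.64 for actin and 1.65 to 2.54 for GAPDH. The scale of these arrays and the level of the genes in these animals therefore cannot be told apart. With these 5 counted as P8, 10 of the 17 calls at P8 against P3 held, and those of Cebpd, Cxcl1, Cxcl10, Il1b, Il1r1, Isg15 and Stat3 were lost. At P21 against P8, 1 of 3 held, and those of Vcam1 and Psmb9 were lost. At P21 against P3, 12 of 21 held, and those of B2m, Cebpd, Cxcl1, Il1b, Lcn2, Psmb8, Stat3, Tnfaip3 and Tnfrsf1a were lost.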

How the data were processed

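For 20 rat arrays the authors deposited linear intensity values, 1 for each probe set, with no log applied and values from 0 upwards, and the labels' protocols give linear RNA amplification over several rounds with biotin labelling. The authors' intensities have the same mean on every array once the lowest and highest 2% are left out (100), which fits a single scale factor per array. GCRMA is named in the submitters' processing notes without a version or role, and which tool made the linear values is not stated there. All 20 columns matched a sample by name.

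Probe sets with exactly 1 gene in the platform annotation were used (20832 of 31099, with 436 naming several genes and 9831 unnamed here), with symbols updated through RefSeq gene identifiers for 20764. Values were analysed as log2(intensity + 1), which understates changes of dim probe sets, with no further normalization. Probe sets above log2 4 on at least 4 of 15 arrays were fitted by lmFit and eBayes, 3 ages in 1 fit (limma 3.58.1, R 4.3.3). Every adjusted p is limma's, adjusted by Benjamini-Hochberg over all 15999 tested probe sets, and a call is an adjusted p under 0.05. The fit was tested on simulated data. Depth has no counterpart on arrays, and the number of arrays limits the precision.

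The members and lists were chosen with earlier results of these data known. Members called in any comparison or averaging above log2 8 at an age are given on every array, as are up to 3 called genes with the smallest p from each other list and comparison, of which the text prints a choice. Rsad2 and Ifit2 were named after their values were seen. Replicate numbers did not pair arrays across ages. Promoters are RefSeq's (GRCr8), 250 bases before each start, and 6 member genes without one were not searched. Alternatives were other filters, pseudocounts, normalizations, variance models and sample sets, 1 probe set per gene, array weights, a replicate block, and each array left out.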

Additional observations from a re-analysis of the deposited data

Results flagged for a closer look

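In each set of 4 to 6 arrays the highest and lowest array of each tested member was compared with the nearest other by Dixon's ratio. Of 123 sets, 14 held an array that stood apart, and chance gives about 1 in 20. In P8 replicate 3, Myd88 was low at 3.75 (next 5.34), Birc3 low at 2.87 (next 4.81), Mx2 low at 3.54 (next 4.38) and Tap1 high at 3.82 (next 1.93). In P8 replicate 2, Cebpd was low at 1.63 (next 4.43), and Cxcl1 was high at 3.07 (next 1.32) and Psmb8 high at 5.70 (next 4.85). In P21 replicate 1, Cd14 was low at 3.10 (next 4.50), Il1b low at 3.87 (next 4.68) and Tlr4 high at 5.00 (next 3.45). Psmb9 was high in P21 replicate 2, at 3.70 (next 1.14), and Tap1 in P21 replicate 5, at 2.17 (next 1.63). At P3, Stat3 was low in replicate 3, at 4.92 (next 6.43), and Nos2 low in replicate 5, at 3.36 (next 5.47). Every value here is log2(intensity + 1). The wide P3 spread of Mx1, Irf7, Ccl2 and Cxcl10 was not picked out by this ratio, since in each of them several P3 arrays were high together.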

How the results depend on the processing

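Of the 41 calls on members, 16 held under every alternative that tested them, 21 with each array left out where they were tested, and 0 reversed. Among the 16 were calls of Nfkbia, Tap1 and Ccl2, whose direction the filter fixed. Gbp2, Psmb9 and Isg15, also among them, would not have passed it without P3 arrays. For these members holding is a description and adds no support. Ccl2 at P21 against P3, counted in the 21, was tested in 11 of the 15 fits with 1 array left out. With 1 array left out the number of members called ran from 6 to 20 for P8 vs P3 (17 with all arrays), from 1 to 3 for P21 vs P8 (3) and from 14 to 23 for P21 vs P3 (21). For P8 vs P3 it was 11 with P8 replicates 5 to 9 as a set of their own in the fit, 10 with only the ages compared, 10 with the filter at log2 6, 7 with array weights and 7 with the replicate block. It was 5 without P3 replicates 1 and 2 and 5 without P3 replicates 5 and 6. For P21 vs P8 it was 1 with replicates 5 to 9 as their own set, 1 with only the ages compared and 1 with array weights. For P21 vs P3 it was 12 with P8 replicates 5 to 9 counted as P8, 10 with the filter at log2 6, 11 without P3 replicates 1 and 2 and 12 without P3 replicates 5 and 6. The filter at log2 6 left 17 of the 41 members to test, and leaving out arrays or adding others changed which were tested; the cause of the other shifts was not tested. With the replicate block 7 members were called by P8, 2 between P8 and P21 and 18 between P3 and P21. Over all probe sets it gave 665 that rose and 612 that fell by P8, 917 and 978 between P8 and P21, and 2811 and 2611 between P3 and P21, against 1218 and 1233, 1312 and 1312, and 3174 and 2997 without it. Over all probe sets, 2846 rose and 1732 fell by P8 with replicates 5 to 9 counted as P8, and 988 rose and 1148 fell between P3 and P21. With these as their own set 479 rose and 513 fell by P8, and 606 and 661 between P8 and P21. With only the ages compared 734 and 687 did so in the latter. Replicate numbers did not pair the arrays, as same-numbered arrays of different ages correlated at -0.056 to 0.079 in their deviations. Counting replicates 5 to 9 as P8 gave 3 members higher and 16 lower for P8 vs P3, and moved the median of all probe sets to 0.177 in the former and -0.240 in P21 vs P8. Over the 123 member differences (41 in each comparison), 44 changed sign under some alternative, and 0 of these were called in either fit. Of those given in the report, at P8 against P3 with replicates 5 to 9 counted as P8, Myd88 was 0.54, Irf1 0.39, Mx2 0.33 and the dimmer tested Cebpd probe set 0.63. Without P3 replicates 1 and 2, Mx1 was 0.19 and Mx2 0.11. Socs3 ran from -0.24 to 0.31 with 1 array left out, and was below 0 in these cases: -0.00 without P3 replicate 1, -0.16 without P3 replicate 5, -0.24 without P8 replicate 1, -0.10 without P8 replicate 4 and -0.02 without P3 replicates 5 and 6. At P21 against P3, Nfkb1 was -0.15 without P3 replicates 3 and 4, and Rela 0.04 without P3 replicates 5 and 6. Ccl2 and Cxcl1 were tested in 24 of 31 alternatives and Nfkbia and Tap1 in 28, as they otherwise failed the filter. Dim probe sets limit the fold changes, since values near 0 have little signal over background.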

Other observations

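Over all 15999 tested probe sets, the deviations of the P3 arrays from their mean correlated above 0 within 3 pairs of arrays, at 0.068 for replicates 1 and 2, 0.040 for replicates 3 and 4 and 0.177 for replicates 5 and 6. The other pairs of P3 arrays ran from -0.462 to -0.100. Deviations from a shared mean correlate below 0 on average, and the 6 arrays share no other label than age. Of the class I heavy chain genes, RT1-S3 read 8.04, 8.88, 4.86, 4.22, 3.41 and 3.70 in P3 replicates 1 to 6 on its brighter probe set, and at most 5.51 in P8 replicates 1 to 4 and P21. RT1-T24-4 had another order, at 2.00, 3.82, 3.71, 7.96, 8.08 and 8.21, and RT1-CE5 (4.04 to 5.94), RT1-CE10 (4.94 to 6.17) and RT1-M3-1 (5.19 to 6.19) spanned less than 2 log2 units. The GTPases Igtp and Irgm, which interferon gamma induces, read 7.42 and 7.19 in P3 replicate 1 and 8.21 and 8.09 in replicate 2, and at most 5.66 and 5.43 in the other P3 arrays. These genes were named after their values were seen.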
